A study of Danio rerio with 30 samples.

Results

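The telencephalon of adult wild-type zebrafish was compared 3 days post injury (dpi) between fish that received a skull injury and fish that received a nostril injury. The comparison holds 7 of the 29 samples of the study, chosen by their labels: 4 samples after skull injury and 3 samples after nostril injury. The skull injury was a vertical stab from above with a micro-knife, which crossed the bone and reached the medial telencephalon. For the nostril injury a thin glass capillary was passed through the nostril. Both hemispheres were lesioned, and the labels give an age of 3 to 5 months. RNA of the whole telencephalon was read on expression arrays. The other samples served as context: skull and nostril injury at 1, 2 and 7 dpi with 3 samples each, and the intact brain with 4 samples. The labels do not say whether samples came from separate fish or pools, so the p-values cover no more than the differences among the arrays at hand. In a whole tissue, fewer cells of a type and less RNA per cell cannot be told apart.

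A stab wound in the zebrafish telencephalon activates microglia and the radial glia that line the ventricle, called ependymoglia, which act as neural stem cells and also do the work that astrocytes do in mammals. Type I and type II interferons are secreted proteins that signal through receptors, Jak kinases, Stat proteins and interferon regulatory factors (Irf) to switch on antiviral effectors such as the Mx GTPases, the machinery of antigen processing and certain chemokines. Toll-like receptors (Tlr), which sense microbial and damage-associated molecules, can induce interferons. The question of the comparison is which of these programs differ between the skull injury and the nostril injury. The injuries differ in more than the opened bone. The paper reports a larger wound volume after skull injury. It also states that only this injury damages the dorsal ventricle, and that it disrupted the ependymoglial layer. The effects of these features cannot be told apart here.

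Values are log2 intensities, so a difference of 1 is a doubling. A transcript was called when its adjusted p was under 0.05 in limma's moderated test over all 9 groups, with Benjamini-Hochberg adjustment over the 40670 transcripts whose linear group mean exceeded 20 in any group. Errors of differences are standard errors (SE) from that fit, with n = 4 for skull and n = 3 for nostril injury. They use 1 spread shared by the 9 groups, and the skull samples at 3 dpi spread more than the other groups. The errors and p-values can therefore be too small for genes whose skull samples vary widely.

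After skull injury 380 transcripts (0.934%) were higher and 1082 (2.66%) lower than after nostril injury at 3 dpi. With 1 probe set for each of 14372 named genes, 87 genes (0.605%) were higher and 411 (2.86%) lower, with a median difference of 0.64 among the higher genes and -0.54 among the lower ones. The 4 skull samples lay above all 3 nostril samples in 76 of the 87 genes and below them in 366 of the 411. Such separation was found in 3.29% and 10.5% of all named genes. The 87 and 411 genes were called on these same samples, so their separation was likely in advance. The excess of lower calls depended on the scaling, since 74% of calls were lower in the values as deposited, 81.4% with each array centred on its median, 52.4% after a further quantile normalization and 45.7% after cyclic loess. The calls also rest on the spread shared by all groups: limma fitted to the 7 samples alone called 0 transcripts, with 4818 at an unadjusted p under 0.05 and a smallest adjusted p of 0.181. Leaving out nostril replicate 1 or nostril replicate 3 left 146 and 151 transcripts, against 1462 with all samples, and 61 transcripts were called whichever of the 7 samples was left out. Of the 76 called genes described here, 71 lost the call without nostril replicate 1 and 67 without nostril replicate 3, while 28 lost it without nostril replicate 2, 26 without skull replicate 3, 24 without skull replicate 1, 12 without skull replicate 4 and 3 without skull replicate 2. All 76 kept their sign in every such fit in which they passed the intensity limit. They were chosen by these same samples, so a kept sign was likely in advance.

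The skull samples at 3 dpi were the most variable group of the study. Their pairwise correlations over all tested transcripts were 0.937 to 0.962, against 0.975 to 0.976 among nostril samples at 3 dpi and 0.967 to 0.982 within the 8 other groups. Their mean within-group variance was 0.173, and that of the 8 other groups 0.0732 to 0.1. Skull replicate 3 was the highest skull sample in 182 of the 380 higher transcripts and the lowest in 521 of the 1082 lower ones. Telencephalic markers were well measured in both groups, with tbr1b at 9.33 to 9.78 after skull injury and at 9.82 to 9.94 after nostril injury. For tbr1b, emx3 (7.79 to 8.06 against 8.27 to 8.36) and dlx2a (8.70 to 8.91 against 8.92 to 9.19) all skull samples lay below all nostril samples. None of these was called (adjusted p = 0.0889, 0.075 and 0.505, limma), and neurod6b and dlx5a overlapped.

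**Figure D1:**
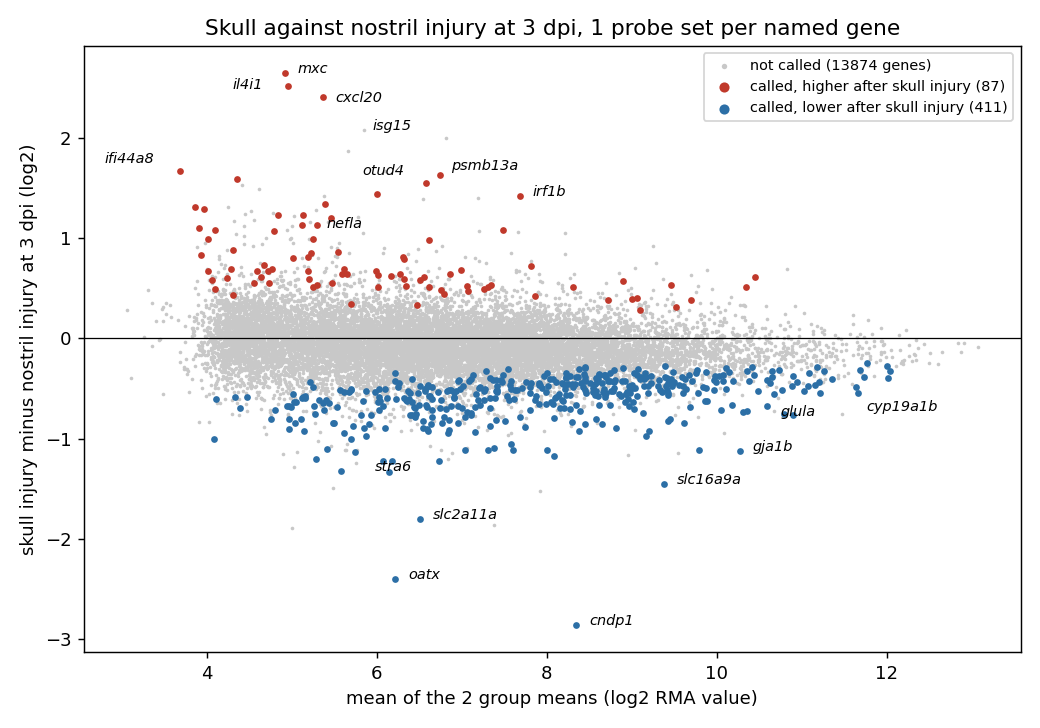
Each point is a named gene, with the mean of the skull and nostril group means (log2) on the horizontal axis and the skull minus nostril difference at 3 dpi (log2) on the vertical axis. Red points are the 87 genes called higher and blue points the 411 called lower after skull injury; mxc lies at 2.64 and cndp1 at -2.86.

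Interferon-response genes included 7 that were higher after skull injury. The gene lists were written with earlier results of these data known, so an excess of calls in a list can be partly built in. Of 37 measured members of this list, these 7 were 18.9% (against 0.605% of all named genes), 0 were lower and 30 were not called, while 34 had a positive difference, 6 had all skull samples above all nostril samples (beside 3.29% of all named genes) and the list median was 0.77, against -0.08 over all named genes. At an unadjusted p under 0.05, 19 members were higher and 0 lower, beside 4.72% higher of all named genes. The intensity limit shaped this list, since 8 of the 37 passed it through the skull group at 3 dpi alone, mxc, mxe and pkz of the called ones among them, and a gene that passed in that way had to be higher there. In the other 29 genes 4 were called higher (13.8%, against 0.511% of named genes chosen likewise) and the median was 0.53. With no intensity limit 3 of the 37 were called, mxc, gig2o and socs1a. The called members were mxc, mxe and mxa (Mx antiviral GTPases), gig2o (a virus-induced gene of fish), pkz (a fish kinase with Z-nucleic acid binding domains), irf1b (a transcription factor) and socs1a (a feedback inhibitor of cytokine signalling).

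The gene mxc read 5.78, 9.03, 4.93 and 5.23 in skull replicates 1 to 4, against 3.18, 4.17 and 3.46 in nostril replicates 1 to 3. All skull samples were above all nostril samples, and skull replicate 2 stood far above the other skull samples. The difference was 2.64 ± 0.63 (SE, adjusted p = 0.0258, limma), but the nostril mean of 3.60 lay below the intensity limit of 4.32 on the log2 scale, near the floor of the arrays, so its size is uncertain. The regulator irf1b had the same order, with 8.32, 9.95, 7.47 and 7.82 after skull injury and 7.13, 6.94 and 6.85 after nostril injury. Its difference was 1.42 ± 0.40 (adjusted p = 0.0495, limma), the smallest skull value lying only slightly above the highest nostril value. The CXC chemokine gene cxcl20, outside this list, was called as well, its nostril mean also below the limit (2.41 ± 0.60, adjusted p = 0.0314, limma). It read 6.81, 9.17, 4.99 and 5.32 after skull injury and 4.06, 4.32 and 4.1 after nostril injury, again with no overlap and with replicate 2 on top. The inhibitor socs1a was highest in replicate 2 too (5.48, 6.80, 4.82 and 5.66 after skull injury, against 4.60, 4.21 and 4.89 after nostril injury), and its groups overlapped through skull replicate 3. All 4 calls ended without nostril replicate 1 or without nostril replicate 3, with adjusted p up to 0.161. The call of irf1b also ended without skull replicate 1, skull replicate 2 or nostril replicate 2, that of cxcl20 without skull replicate 1 or nostril replicate 2, and that of socs1a without nostril replicate 2.

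A second set of interferon genes was highest in skull replicates 1 and 4 and at the nostril level in replicate 3. The transcription factor irf7, the master regulator of type I interferon genes in mammals, read 8.17, 7.12, 4.98 and 7.46 after skull injury and 5.14, 5.58 and 5.09 after nostril injury. The ubiquitin-like modifier isg15, chosen like rsad2 and cmpk2 after its values were seen, read 8.10, 6.86, 4.72 and 7.87 after skull injury and 4.56, 5.37 and 4.51 after nostril injury. Neither passed the test (1.66 ± 0.49 with adjusted p = 0.0573 for irf7, 2.07 ± 0.63 with adjusted p = 0.0611 for isg15, limma). Both passed it without skull replicate 3 (adjusted p = 0.0036 and 0.00899, limma). That replicate lay at the nostril level, so leaving it out had to raise the difference. Neither gene passed with any other single sample left out, with adjusted p up to 0.179 and 0.195 (limma). The antiviral genes rsad2 (viperin) and cmpk2 had the same order of samples and adjusted p of 0.055 and 0.0577. The called genes mxa and pkz belonged to this pattern, with mxa at 7.11, 5.64, 4.66 and 6.82 after skull injury and 4.69, 4.94 and 4.54 after nostril injury, and with pkz at 5.02, 4.77, 3.21 and 5.07 against 2.93, 3.51 and 3.19. Their groups overlapped, through skull replicate 3 alone. The call of mxa ended without skull replicate 1, skull replicate 4 or any of the nostril replicates (adjusted p up to 0.15), and that of pkz without skull replicate 1, skull replicate 4, nostril replicate 1 or nostril replicate 3 (up to 0.141). The call of mxe ended without skull replicate 1 or any of the nostril replicates, and without skull replicate 2 it fell below the intensity limit; that of gig2o ended without nostril replicate 1 or nostril replicate 3.

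Counted over the 37 genes, skull replicates 1, 2 and 4 exceeded every nostril sample in 32, 32 and 29 genes, and skull replicate 3 in 8. Over all 14372 named genes these counts were 2816, 4556 and 3816, and 3242 for replicate 3. In the 37 genes the median distances of replicates 1, 2 and 4 from the nostril mean were 0.98, 0.92 and 0.84, and that of replicate 3 was -0.09. Replicate 3 was the highest skull sample in 0 of the 37 genes, in 2795 of the 14372 named genes and in 47.9% of the transcripts called higher. The number of called members was 17 without skull replicate 3, 3 without skull replicate 1, and 0 without nostril replicate 1 or without nostril replicate 3, and 0 in the fit of the 7 samples alone.

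**Figure D2:**
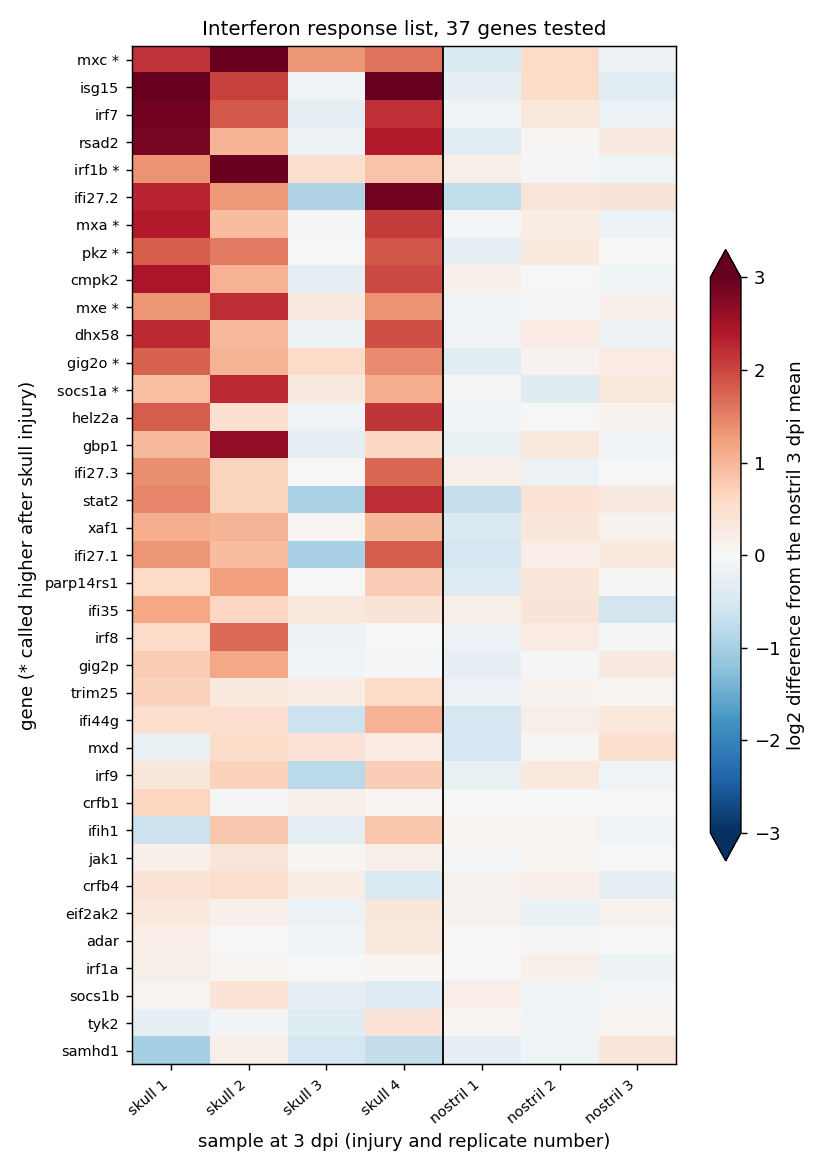
Each row is 1 of the 37 interferon-response genes and each column a sample at 3 dpi, the 4 skull samples left of the 3 nostril samples; colour gives the log2 difference from the nostril mean of that gene, clipped at 3 units, and asterisks mark the 7 called genes. The skull 3 column is pale for most genes, whereas mxc, irf1b, socs1a and gbp1 are darkest in skull 2 and isg15, irf7 and mxa in skull 1 and 4.

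Of the genes that the study named for its Tlr signature, mxc and mxe were called and irf7 was not. The gene irf2, also named there, had no probe set with that single symbol and could not be examined. The study chose these genes on the same samples, so their direction is not independent evidence. The receptors themselves were not called, with tlr21 at 5.84, 6.51, 4.15 and 5.75 after skull injury and 4.3, 4.68 and 4.37 after nostril injury (1.11 ± 0.36, adjusted p = 0.0799, limma) and tlr8b at 5.46 to 6.37 against 4.60 to 5.54 (0.72 ± 0.27, adjusted p = 0.122). Of the 11 measured Toll-like receptor and adaptor genes 0 passed the test in limma. At an unadjusted p under 0.05, 3 were higher and 1 lower, beside 4.72% higher and 16.7% lower of all named genes. Of 3 measured genes in the list of Cxcr3 ligands and receptors 1 was called higher (33.3%, against 0.605% of all named genes), the chemokine gene cxcl20 described above. The receptor genes cxcr3.2 and cxcr3.3 were not called. The ligand gene cxcl11.1 lay at or below the intensity limit in all 9 groups and was not tested. The other genes that the study named for this chemokine family, cxcl11.5, cxcl11.6 and cxcl13, had no probe set with such a single symbol. They could not be examined.

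Of 28 antigen processing genes 2 were called higher (7.14%, against 0.605% of all named genes), psmb13a and tapbp.1. The immunoproteasome subunit gene psmb13a read 7.36, 8.63, 7.36 and 6.91 after skull injury, against 5.28, 6.50 and 6.04 after nostril injury. Its difference was 1.62 ± 0.34 (adjusted p = 0.0166, limma), and nostril replicate 1 was the lowest sample. The gene of the peptide-loading protein tapasin, tapbp.1, read 6.88, 6.46, 6.98 and 6.53 after skull injury and 5.86, 6.05 and 5.86 after nostril injury, a difference of 0.79 ± 0.21 (adjusted p = 0.0406). The proteasome activator gene psme2 was at 5.13 to 6.02 after skull injury and at 4.51 to 4.99 after nostril injury and did not pass the test (0.72 ± 0.21, adjusted p = 0.0527). Unlike irf7 or isg15, these 3 genes were above every nostril sample in all 4 skull samples, replicate 3 included. The whole list did not share this. Over its 28 genes replicate 3 was above every nostril sample in 9 and below every one in 13, with a median of -0.15 from the nostril mean. Over all 14372 named genes these counts were 3242 and 6893, with a median of -0.12. At an unadjusted p under 0.05, 8 of the 28 were higher and 3 lower, beside 4.72% and 16.7% of all named genes. Both calls ended without nostril replicate 1 or without nostril replicate 3, and that of tapbp.1 also without skull replicate 1, skull replicate 3 or nostril replicate 2 (adjusted p up to 0.142).

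Among the other large increases, the deubiquitinase gene otud4 had the smallest adjusted p of all transcripts. It read 7.67, 6.63, 7.56 and 7.55 after skull injury and 5.70, 6.13 and 5.6 after nostril injury. The difference was 1.55 ± 0.19 (adjusted p = 0.000679, limma), with replicate 2 lowest among the skull samples, and the call held whichever sample was left out (adjusted p at most 0.0128). The gene ifi44a8, named after an interferon-induced protein, read 4.85, 5.30, 3.83 and 4.12 after skull injury and 2.74, 2.95 and 2.88 after nostril injury. Its difference was 1.67 ± 0.22 (adjusted p = 0.0013), but it passed the intensity limit through the skull group at 3 dpi alone, its level after nostril injury was near the floor of the arrays, and without skull replicate 2 it was not tested. It was called in the other 6 fits with 1 sample left out. The nucleolar protein gene wdr46 had its maximum in replicate 3, with 8.11, 7.64, 8.59 and 7.77 after skull injury and 7.09, 7.22 and 6.54 after nostril injury (1.08 ± 0.23, adjusted p = 0.0168).

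Also higher with no overlap of samples were csf2rb (the common receptor chain for Gm-csf and related cytokines in mammals, 1.22 ± 0.34), ogfr2 (of the opioid growth factor receptor family, 1.23 ± 0.27), btr29 (of a Trim-related family of fish, 0.99 ± 0.21), and the unnamed loci si:dkey-27h10.2 (1.44 ± 0.33) and si:dkey-222f2.7 (1.1 ± 0.25). Their adjusted p lay between 0.0146 and 0.0459 in limma. All 5 calls ended without nostril replicate 1 or without nostril replicate 3, those of csf2rb and si:dkey-27h10.2 also without skull replicate 1, and those of csf2rb and si:dkey-222f2.7 without nostril replicate 2. The call of csf2rb ended without skull replicate 2 too, and si:dkey-222f2.7 fell below the intensity limit without skull replicate 1 or 3. The chemokine gene ccl19a.2 was the only member called among 32 cytokines and other chemokines (3.12%, against 0.605% higher of all named genes). It was at 3.91 to 4.55 after skull injury and 3.46 to 3.82 after nostril injury (0.67 ± 0.15, adjusted p = 0.0196, limma). Further called genes, chosen here after their values were seen, were il4i1 (an amino acid oxidase of immune cells, 2.52 ± 0.58), uba7 (the enzyme that activates Isg15, 1.07 ± 0.29), mov10a (an RNA helicase, 0.67 ± 0.15), nfkbie (an inhibitor of NF-kB, 0.80 ± 0.20), and the proteasome genes psmd2, psmd4a and psmg2 (0.61 ± 0.14, 0.42 ± 0.10 and 0.51 ± 0.14). The il4i1 values were 6.54, 7.43, 3.62 and 7.27 after skull injury and 3.40, 4.21 and 3.49 after nostril injury, with replicate 3 again at the nostril level. The calls of wdr46, ccl19a.2 and these 7 genes ended without nostril replicate 1 or without nostril replicate 3. Those of uba7, nfkbie, psmd2, psmd4a and psmg2 also ended without skull replicate 1, those of uba7, nfkbie and psmg2 without nostril replicate 2, that of psmg2 without skull replicate 3, and that of uba7 without skull replicate 2 or 4. Of the genes in this and the preceding paragraph, ifi44a8, si:dkey-222f2.7, ccl19a.2 and il4i1 passed the intensity limit through the skull group at 3 dpi alone, and ccl19a.2 was below it without skull replicate 1 or 2. Among all 87 higher genes 14 passed in that way and 23 had a nostril mean below the limit, so those differences are measured against values near the floor.

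**Figure D3:**
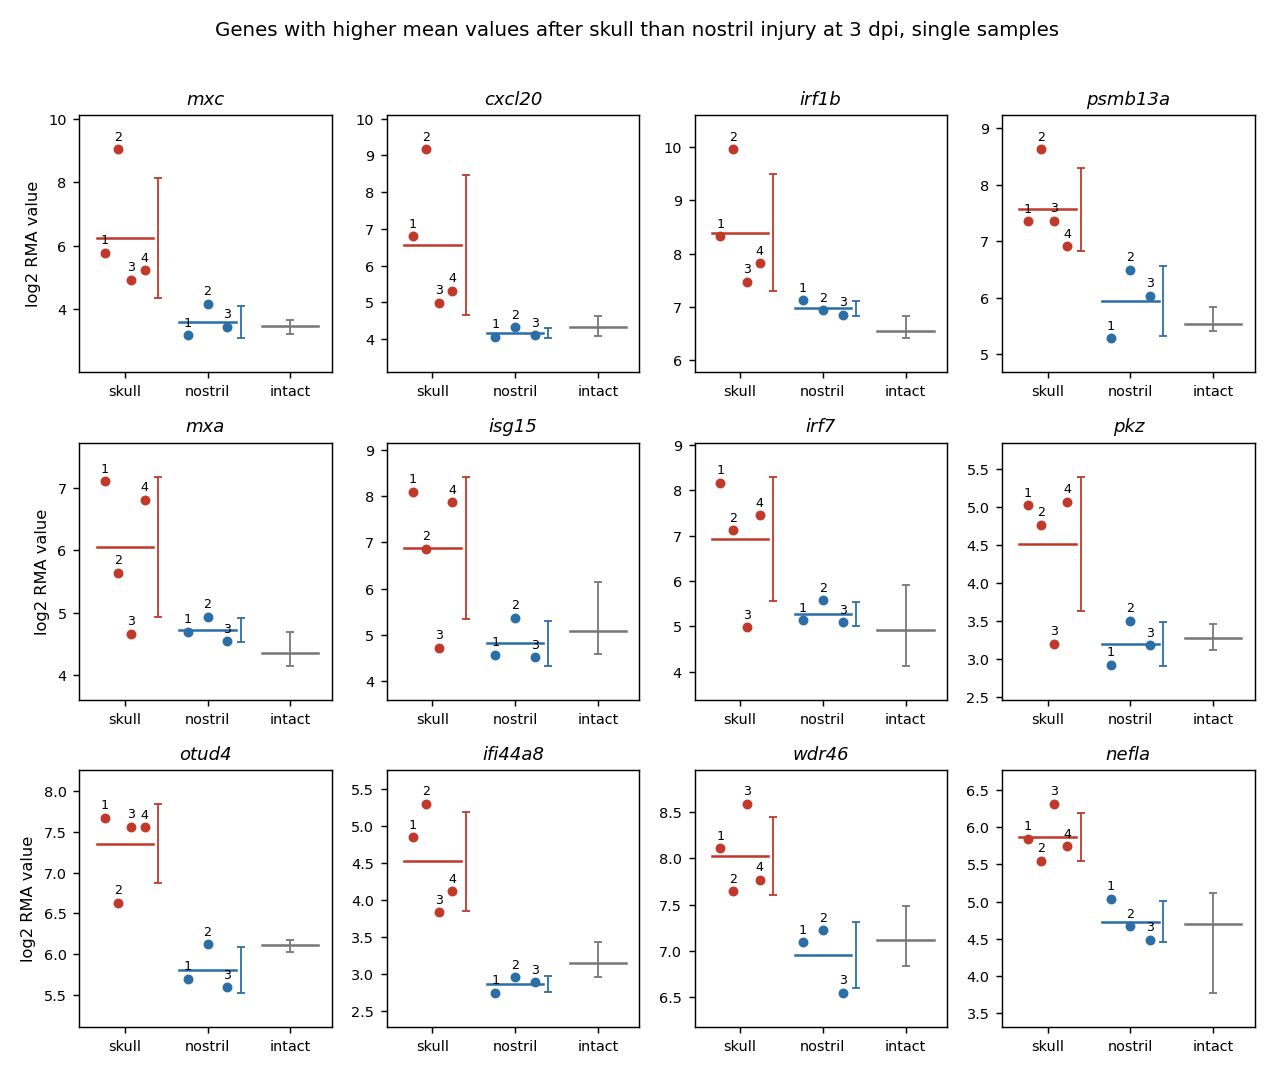
Log2 values of 12 genes in single samples at 3 dpi, with skull samples in red (n = 4), nostril samples in blue (n = 3) and replicate numbers beside the points; horizontal lines are means, the bars beside them SD, and grey bars the range of the 4 intact samples. Replicate 2 is on top for mxc, cxcl20, irf1b and psmb13a, replicate 3 lies within the nostril range for mxa, irf7, isg15 and pkz or just outside it, and otud4, ifi44a8, wdr46 and nefla do not overlap; isg15 and irf7 were not called.

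Microglia and macrophage genes did not pass the test: of 44 measured, 0 were called in limma. At an unadjusted p under 0.05, 13 of the 44 were higher and 0 lower, beside 4.72% higher and 16.7% lower of all named genes. In 9 of the 44 all skull samples lay above all nostril samples, beside 3.29% of all named genes. The list median was 0.37, against -0.08. The microglial purine receptor gene p2ry12 read 4.80, 4.33, 4.34 and 4.0 after skull injury and 3.5, 3.75 and 3.84 after nostril injury (0.67 ± 0.20, adjusted p = 0.0595). The leukocyte GTPase gene rac2 was at 6.69 to 7.88 after skull injury and at 6.04 to 6.50 after nostril injury (0.92 ± 0.28, adjusted p = 0.0612). Neither pair of groups overlapped. Skull replicate 2 was the highest skull sample in 40 of the 44 genes, as in mpeg1.2 (a pore-forming protein of macrophages) with 5.13, 6.57, 5.16 and 5.11. Over all 14372 named genes it was the highest skull sample in 5502. The summed linear level of the list was 12900 to 19600 in skull samples and 12000 to 13300 in nostril samples. The sample in which mxc, cxcl20 and irf1b peaked was thus also the one with the highest microglial markers, and the part of these markers in the interferon result was not tested. Of the 44 genes, 32 were higher than in the intact brain after skull injury (2.87% of all named genes were) and 4 after nostril injury (0.0696%), both comparisons sharing the intact samples. Of 14 neutrophil, 10 T and NK cell and 5 B cell genes, 0 were called in limma. At an unadjusted p under 0.05 they had 1, 1 and 0 members, beside 21.5% of all named genes in either direction. The T cell gene zap70 and the B cell genes cd79a, cd79b and pax5 were near the floor in both groups and were not tested. The T cell gene cd4-1 was not tested either. It was at 4.02 to 4.58 after skull injury and at 3.62 to 3.86 after nostril injury, with both means below the intensity limit.

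Ependymoglial genes were lower after skull injury, in a list also written with earlier results of these data known. Of 53 measured, 8 were lower (against 2.86% of all named genes), 0 were higher and 45 were not called, and 23 had all skull samples below all nostril samples, beside 10.5% of all named genes. At an unadjusted p under 0.05, 26 members were lower, beside 16.7% of all named genes. The list median was -0.38, against -0.08 over all named genes, and -0.29 to -0.40 under the other scalings. The called members were cyp19a1b (brain aromatase, which makes oestrogen in radial glia of fish), glula and glulb (glutamine synthetases), slc6a11b (a GABA transporter), gja1b (the gap junction protein connexin 43), fabp7a (brain lipid-binding protein), id1 (an inhibitor of differentiation that keeps stem cells quiescent) and the unnamed locus si:ch211-251b21.1.

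The gap junction gene gja1b read 9.40, 10.59, 8.98 and 9.88 after skull injury and 10.75, 10.85 and 10.91 after nostril injury. The fall of 1.12 ± 0.25 (adjusted p = 0.018, limma) varied widely among skull samples, replicate 2 lying close to the nostril samples and replicate 3 farthest away. The aromatase gene cyp19a1b fell less but evenly, with 11.52, 11.36, 11.18 and 11.53 after skull injury against 12.02, 11.87 and 11.93 after nostril injury (-0.54 ± 0.11, adjusted p = 0.0139). For glula the values were 10.42, 10.43, 9.97 and 10.22 after skull injury and 10.84, 10.85 and 11.12 after nostril injury (-0.68 ± 0.14, adjusted p = 0.0147). The transporter gene slc6a11b read 8.34, 7.79, 7.48 and 7.95 after skull injury and 8.87, 8.59 and 8.71 after nostril injury (-0.84 ± 0.18, adjusted p = 0.0172). In these 4 genes replicate 3 was the lowest sample. The differences were -0.63 ± 0.14 for id1, -0.39 ± 0.10 for fabp7a, -0.67 ± 0.19 for glulb and -0.76 ± 0.16 for si:ch211-251b21.1, all with no overlap. The glial fatty acid carrier gene fabp7b had the widest difference of the list, -1.15 ± 0.38, and did not pass the test (adjusted p = 0.0825). The glial filament gene gfap overlapped, at 7.52 to 8.64 after skull injury and at 8.11 to 8.31 after nostril injury. Called members numbered 1 without nostril replicate 1 (glula) and 0 without nostril replicate 3, and 14 without skull replicate 2. The calls of fabp7a and glulb also ended without skull replicate 3 or 4, that of glulb without skull replicate 1, and both after a further quantile normalization or cyclic loess. The summed linear level of the list was 24000 to 31500 in skull samples and 38800 to 40600 in nostril samples.

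The largest decreases were genes of transport and peptide cleavage in which the nostril mean was also above the intact mean. The carnosine-cleaving peptidase gene cndp1 read 6.25, 6.77, 6.85 and 7.82 after skull injury and 11.01, 10.11 and 8.20 after nostril injury. The difference was -2.86 ± 0.63 (adjusted p = 0.018, limma). Nostril replicates 1 and 2 lay above the intact samples (7.79 to 8.51, mean 8.24), while nostril replicate 3 was at the intact level. Skull replicates 1 to 3 lay below all intact samples, and skull replicate 4 was at their lower edge. The difference from intact was -1.32 after skull injury and 1.54 after nostril injury, the latter not called (adjusted p = 0.602, limma). The organic anion transporter gene oatx read 5.33, 4.47, 4.58 and 5.69 after skull injury and 7.92, 7.61 and 6.73 after nostril injury (-2.40 ± 0.42, adjusted p = 0.00666), with the intact mean at 6.47. Its call held whichever sample was left out, with adjusted p up to 0.0497. The call of cndp1 ended without nostril replicate 1 or 2 (adjusted p up to 0.121).

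Transporters of the solute carrier families recurred among these genes, a group set apart here after the values were seen. Of 286 measured solute carrier genes 17 were lower (5.94%, against 2.86% of all named genes) and 0 higher. The hexose transporter family gene slc2a11a read 6.48, 5.41, 4.69 and 5.87 after skull injury and 8.08, 6.77 and 7.39 after nostril injury (-1.80 ± 0.42, adjusted p = 0.0227, limma). The amino acid transporter gene slc7a8b read 5.81, 4.93, 5.06 and 6.10 after skull injury and 7.10, 6.83 and 6.50 after nostril injury (-1.33 ± 0.33, adjusted p = 0.0288). Neither gene overlapped between the injuries, and nostril replicate 1 was the highest sample in both. The monocarboxylate transporter family gene slc16a9a, at 7.55 to 9.27 after skull injury and 9.74 to 10.48 after nostril injury, fell by 1.45 ± 0.39, and the dicarboxylate transporter gene slc13a3, at 4.39 to 5.23 and 5.72 to 7.01, fell by 1.33 ± 0.35. Smaller decreases were measured for slc22a21 (an organic cation or carnitine transporter family gene, -0.85 ± 0.15, called whichever sample was left out), slc15a2 (a peptide transporter, -0.80 ± 0.20) and slc7a8a (-0.55 ± 0.12). The retinol uptake receptor gene stra6 read 6.35, 6.10, 5.98 and 6.06 after skull injury and 8.24, 7.16 and 6.64 after nostril injury (-1.22 ± 0.31, adjusted p = 0.0345), and here the nostril samples were the spread ones. Without nostril replicate 1 the calls of slc2a11a, slc7a8b, slc16a9a, slc13a3 and stra6 ended (adjusted p up to 0.218), as they did without skull replicate 3. Without nostril replicate 3 those of slc2a11a, slc7a8b, slc16a9a and slc13a3 ended, and without nostril replicate 2 those of slc7a8b, slc16a9a, slc13a3 and stra6. The call of slc15a2 ended without skull replicate 1, nostril replicate 1 or nostril replicate 3 (adjusted p up to 0.134), and that of slc7a8a without nostril replicate 1 or nostril replicate 3 (up to 0.119). After quantile normalization or cyclic loess slc16a9a lost its call.

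Genes of tissue next to the telencephalon were examined beside these transporters. Of 20 measured photoreceptor and pineal genes 0 were called in limma, the list median was 0.00 and 10 differences were positive. The photoreceptor and pineal list summed to 463 to 634 in skull samples and 659 to 1120 in nostril samples, with 10 of the 20 genes below the intensity limit in both groups. Its retinoid isomerase gene rpe65a read 6.88, 5.59, 5.97 and 7.39 after skull injury and 9.07, 7.98 and 7.90 after nostril injury (-1.86 ± 0.55, adjusted p = 0.0579, not called), and its homeobox gene otx2b was at 4.67 to 5.42 after skull injury and at 5.63 to 6.59 after nostril injury. In both genes all skull samples lay below all nostril samples. The pineal opsin gene exorh had the opposite order, at 5.57 to 6.0 after skull injury and at 5.12 to 5.49 after nostril injury (adjusted p = 0.794, limma, not called). The sums of the neuropeptide list overlapped, with 3270 to 8370 in skull samples and 5350 to 11100 in nostril samples. The part of neighbouring tissue in the fall of the transporters was not tested.

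**Figure D4:**
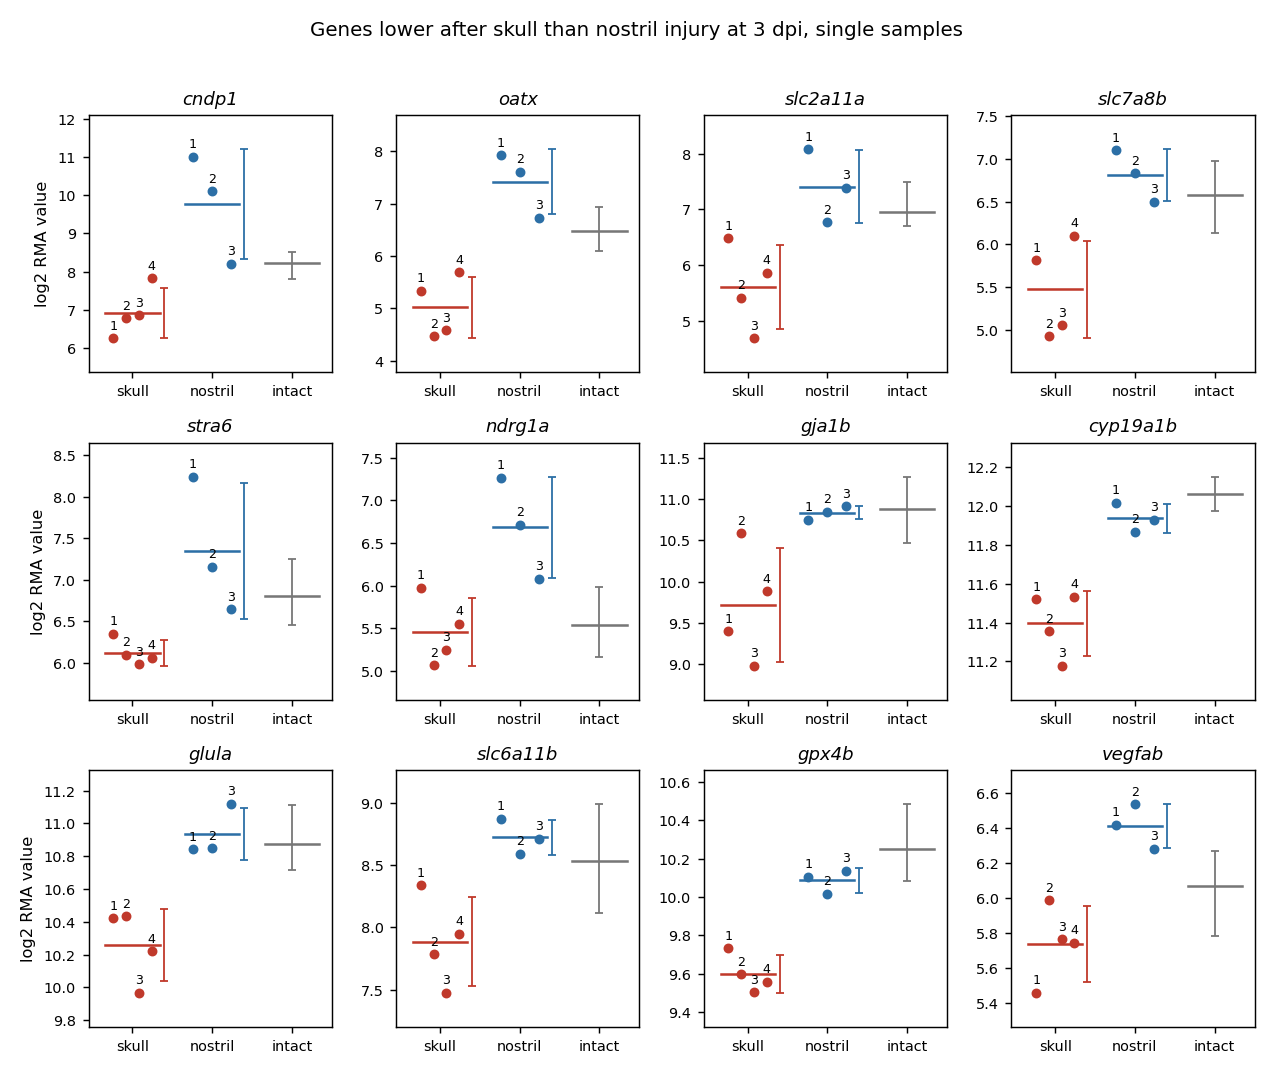
Log2 values of 12 genes called lower after skull injury, in single samples at 3 dpi, drawn as for the higher genes with skull samples in red (n = 4), nostril samples in blue (n = 3), means, SD bars and the grey range of the 4 intact samples. For cndp1, oatx and ndrg1a the nostril mean is above the intact mean, whereas for gja1b, cyp19a1b and glula the nostril samples lie about at the intact level. The skull samples of these last genes lie below the intact range, except replicate 2 of gja1b, which lies within it.

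Several secreted or signalling genes were lower after skull injury. The procollagen protease gene bmp1b read 4.82, 4.75, 4.28 and 4.90 after skull injury and 6.49, 5.89 and 5.28 after nostril injury (-1.20 ± 0.24, adjusted p = 0.0125, limma), and twsg1a, a modulator of Bmp signalling, was at 6.48 to 8.08 against 8.22 to 9.04 (-1.17 ± 0.32). The vascular growth factor gene vegfab read 5.46, 5.99, 5.76 and 5.74 after skull injury and 6.42, 6.53 and 6.28 after nostril injury (-0.67 ± 0.15, adjusted p = 0.0186). The gelatinase gene mmp2 was at 7.40 to 8.05 after skull injury and at 8.24 to 8.78 after nostril injury (-0.80 ± 0.21, adjusted p = 0.0385, limma). It was the only one of 64 matrix genes that was called (1.56%, against 2.86% lower of all named genes). Further lower genes were ndrg1a (-1.22 ± 0.25), apof (an apolipoprotein, -1.12 ± 0.26), rce1a (a protease that processes prenylated proteins, -1.14 ± 0.24), tmem100b (-1.12 ± 0.32) and si:ch211-71n6.4 (-1.23 ± 0.23). Growth factor and lipid-mediator genes chosen after their values were seen were igf2b (-1.05 ± 0.25), its binding protein gene igfbp2a (-0.90 ± 0.22) and the prostaglandin D synthase gene ptgdsb.1 (-1.11 ± 0.31). These 12 calls ended without nostril replicate 1, and those other than bmp1b, ndrg1a and si:ch211-71n6.4 also without nostril replicate 3. Without skull replicate 3 those of twsg1a, mmp2, apof, tmem100b, igf2b, igfbp2a and ptgdsb.1 ended, without nostril replicate 2 those of vegfab, tmem100b and ptgdsb.1, without skull replicate 4 those of mmp2, tmem100b and ptgdsb.1, and without skull replicate 1 that of twsg1a. The calls of twsg1a, mmp2, tmem100b and ptgdsb.1 ended after quantile normalization or cyclic loess. Of the matrix-related genes named by the study, also chosen on these samples, the fibrinogen gene fga was called, at 4.28 to 5.06 after skull injury and 3.47 to 4.19 after nostril injury (0.88 ± 0.25, adjusted p = 0.0495). Its nostril mean was below the intensity limit, and its call ended without skull replicate 1, skull replicate 3 or any of the nostril replicates (adjusted p up to 0.233) and after quantile normalization or cyclic loess. The protease gene mmp9 overlapped (0.66 ± 0.35, adjusted p = 0.283).

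Few neuronal and axonal genes were called, and the short myelin list held a larger share of lower calls. Of 72 neuron and synapse genes 2 were lower (2.78%, against 2.86% of all named genes), sypa (synaptophysin, -0.41 ± 0.10) and gria3b (an AMPA receptor subunit, -0.39 ± 0.10). Of 13 myelin genes 2 were lower (15.4%, against 2.86%), tspan2a (-0.63 ± 0.13) and gpm6ba (-0.41 ± 0.09). The myelin list median was -0.05, against -0.08 over all named genes. At an unadjusted p under 0.05 in limma, 3 of the 13 were lower, beside 16.7% of all named genes. After quantile normalization or cyclic loess gpm6ba, gria3b, sncgb and uchl1 lost their calls, and sypa did after cyclic loess. Of 50 axon growth and injury genes 1 was higher (2%, against 0.605%) and 2 were lower (4%, against 2.86%). The higher one was nefla, the neurofilament light chain gene, with 5.84, 5.55, 6.31 and 5.74 after skull injury and 5.03, 4.67 and 4.49 after nostril injury (1.13 ± 0.26, adjusted p = 0.0224, limma). The lower ones were the abundant neuronal genes sncgb and uchl1 (-0.33 ± 0.08 and -0.32 ± 0.08), with all skull samples below all nostril samples for both. The cytokine inhibitor gene socs3b was at 5.32 to 5.84 after skull injury and at 4.35 to 4.75 after nostril injury and narrowly missed the threshold (0.94 ± 0.27, adjusted p = 0.0513). The 7 calls of this paragraph ended without nostril replicate 1 or without nostril replicate 3. Those of gria3b, sncgb, uchl1 and nefla also ended without skull replicate 3 or nostril replicate 2, those of gria3b and sncgb without skull replicate 1, and that of uchl1 without skull replicate 4. Of 37 proliferation genes, 42 neurogenic and young neuron genes, 15 oligodendrocyte progenitor genes and 35 activity-induced early genes, 0 were called in limma. At an unadjusted p under 0.05 these lists had 5, 10, 2 and 4 members, beside 21.5% of all named genes in either direction, the early gene dusp5 among them at 8.18 to 8.68 after skull injury and 7.66 to 7.96 after nostril injury (adjusted p = 0.0612).

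Of 100 respiratory chain genes 9 were lower (9%, against 2.86%) and 91 were not called, with 20 lower at an unadjusted p under 0.05 beside 16.7% of all named genes. The called ones included ndufs3 of complex I at 9.09 to 9.41 after skull injury and 9.70 to 9.72 after nostril injury (-0.44 ± 0.09, adjusted p = 0.0138, limma) and the ATP synthase gene atp5mc3b (-0.63 ± 0.14). Of 76 cytosolic ribosomal protein genes 6 were lower (7.89%), with rpl10a at 10.10 to 10.61 against 10.78 to 10.85 (-0.42 ± 0.10) and rps3 at 10.92 to 11.82 against 11.78 to 11.96 (-0.48 ± 0.13). The list medians were -0.05 and -0.20, against -0.08 over all named genes. The ribosomal result depended on the scaling: 0 of the 76 were called in limma after quantile normalization or cyclic loess, where the median was -0.09 and -0.08 and 15 and 9 were lower at an unadjusted p under 0.05, against 38 in the values as deposited. With array weights, without skull replicate 3 or without any one nostril replicate 0 were called too. Respiratory chain calls numbered 5 after quantile normalization and 4 after cyclic loess, with medians of 0.03 and 0.05, 4 with array weights, 3 without skull replicate 3, 1 without nostril replicate 1 and 0 without nostril replicate 3. Of 30 oxidative stress genes 3 were lower (10%, against 2.86%), the peroxidase genes gpx4b (-0.49 ± 0.10) and prdx2 (-0.67 ± 0.17) and the glutathione transferase gene gstp1.2 (-0.73 ± 0.16). Single genes were lower in glycolysis (pfklb, -0.66 ± 0.18), sterol regulation (insig2, -0.62 ± 0.13), the clock list (hlfb, -0.93 ± 0.22), the p53 list (mdm4, -0.43 ± 0.11) and the unfolded protein response (sdf2l1, -0.57 ± 0.13). These single genes were 2.5%, 3.57%, 2.7%, 4.17% and 3.23% of their lists, against 2.86% of all named genes. The calls named in this paragraph ended without nostril replicate 1 or without nostril replicate 3. Those of prdx2, rpl10a, rps3 and pfklb also ended without nostril replicate 2, those of rpl10a, rps3, pfklb, mdm4 and sdf2l1 without skull replicate 3, those of rps3, pfklb, hlfb, mdm4 and sdf2l1 without skull replicate 1, and those of pfklb, hlfb and mdm4 without skull replicate 4. The calls of prdx2, pfklb and mdm4 ended after quantile normalization or cyclic loess.

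The called genes were also set beside the intact brain; they were chosen by the same skull and nostril samples, so the counts are a description. Of the 87 higher genes 57 were also higher after skull injury than in the intact brain (2.87% of all named genes were) and 0 differed after nostril injury (0.0696% of all named genes were higher there), and the skull mean was the one farther from intact in 75. Of the 411 lower genes 241 were also lower after skull injury than intact (4.13% of all named genes were), 1 differed after nostril injury, and the skull mean was farther from intact in 350. The intact samples are shared by both comparisons. For 7 of the 76 called genes described here the nostril mean was the one farther from intact: cndp1, ndrg1a, bmp1b, tmem100b, mmp2, vegfab and slc15a2. The gene ndrg1a had skull samples at 5.07 to 5.98, nostril samples at 6.08 to 7.27 and an intact mean of 5.54.

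The differences were much smaller on the other days. Those samples did not enter the 3 dpi differences, but they did enter the shared spread and the intensity limit. The transcripts were chosen for their difference at 3 dpi, so smaller differences on other days follow in part from the choice. The 380 higher transcripts had median skull minus nostril differences of 0.01, 0.00 and 0.04 at 1, 2 and 7 dpi, and the 1082 lower ones 0.06, -0.01 and 0.02. At 1 dpi 14 of all tested transcripts (0.0344%) were called, and at 2 and 7 dpi 0 were called in limma, with 957 and 1175 at an unadjusted p under 0.05. A contrast of the 3 dpi difference with the mean of the other 3 days called 293 transcripts (0.72%, with 0.138% higher and 0.583% lower), among them 53 of the 380 higher ones (13.9%) and 236 of the 1082 lower ones (21.8%). By that test otud4, ifi44a8, wdr46 and ccl19a.2 were higher and oatx, bmp1b, cyp19a1b, tspan2a, vegfab, insig2, gpx4b, ndufs3 and slc22a21 lower at 3 dpi than on the other days. For mxc, cxcl20, cndp1 and gja1b, whose skull or nostril samples spread widely, the contrast did not pass the test (adjusted p from 0.0672 to 0.1). The number called in this contrast was 0 without nostril replicate 3, 25 without nostril replicate 1 and 2247 without skull replicate 2.

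**Figure D5:**
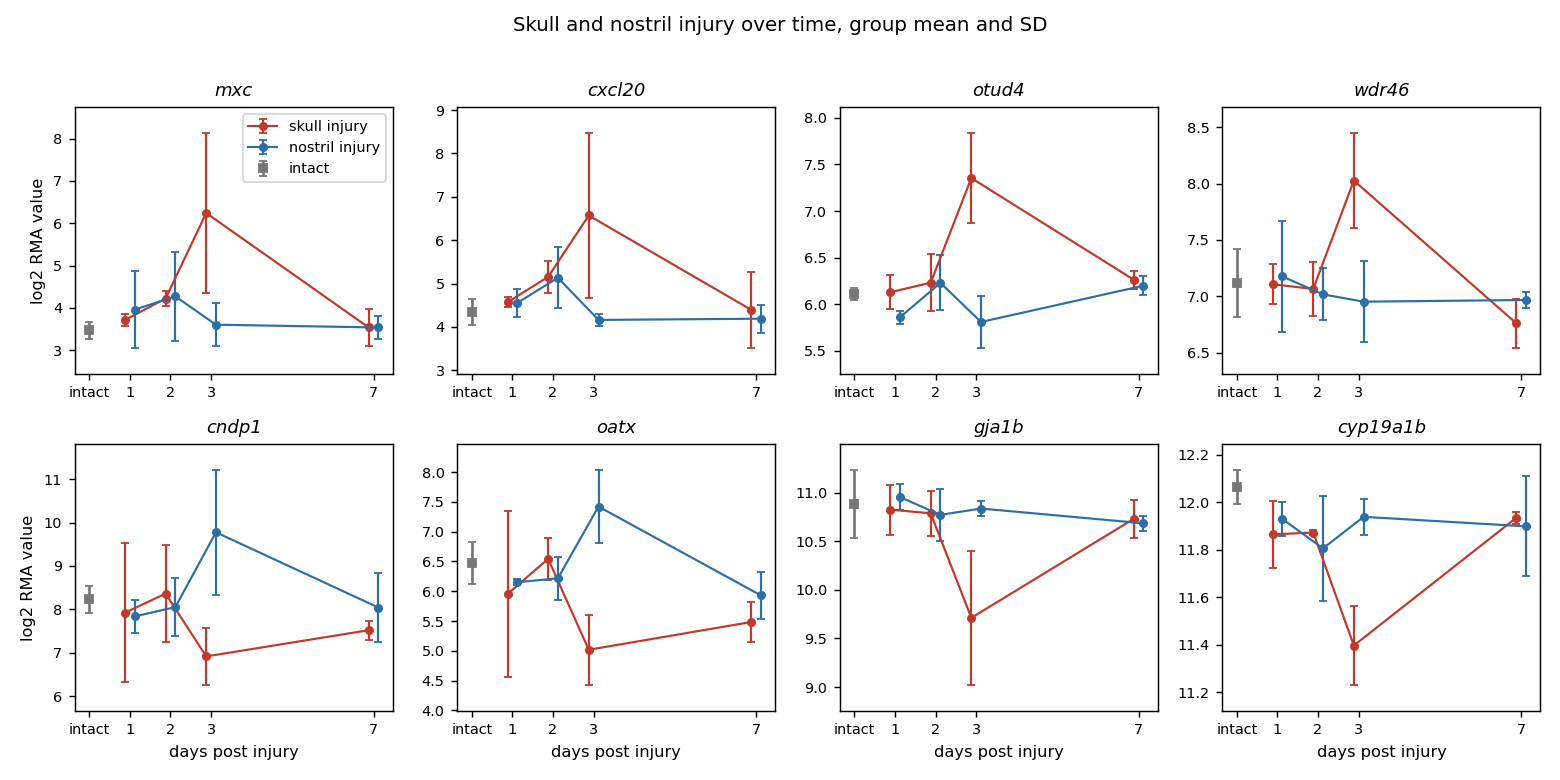
Group means of 8 genes (log2) by days post injury, with skull injury in red and nostril injury in blue at 1, 2, 3 and 7 dpi and the intact brain in grey on the left; bars are SD over 3 samples, or 4 for skull injury at 3 dpi and intact. In each panel the 2 injuries are farthest apart at 3 dpi; the widest skull bar is at 3 dpi for mxc, cxcl20, gja1b, otud4, wdr46 and cyp19a1b.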

How the data were processed

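RNA of whole telencephalon was amplified with a Nugen kit and hybridised to Affymetrix zebrafish gene arrays, 30 arrays for 29 samples, since 1 intact sample was read on 2 technical arrays, which were averaged here. The authors computed the deposited log2 intensities by RMA with Affymetrix Expression Console 1.3, which pulls the distributions of all arrays together and so can shrink a broad shift. Arrays have no sequencing depth, and the number of samples limits the precision. All 75212 probe sets were fitted with limma 3.58.1 (R 4.3.3) over 9 groups, and p-values were adjusted over the 40670 whose linear mean exceeded 20 in at least 1 group. The platform annotation gave 1 gene symbol to 20806 probe sets, several to 855 and none to 53551, and the probe set with the highest mean stood for a gene. Near-identical family members such as the Mx genes may share probes. The procedure was tested on simulated data. The genes named were the 15 largest called differences without overlap in each direction, genes the study named, up to 4 members of each of 37 gene lists with the smallest p, and all called members of the interferon, antigen presentation, microglia, ependymoglia and axon lists; others were chosen after their values were seen. The samples, genes and lists were chosen with earlier results of these data known. Replicate numbers did not pair the samples, the correlations of deviations of same-numbered samples being 0.02, -0.03 and -0.06. Alternatives were the scaling, the intensity limit, array weights, other moderation, the 2 groups alone, a replicate block, and each sample left out.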

Additional observations from a re-analysis of the deposited data

Results flagged for a closer look

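In groups of 4 samples, 9 of 190 sets of values held a sample set apart from the others by Dixon's criterion, which chance passes in about 1 of 20 sets. In skull injury at 3 dpi these were replicate 3 of pkz at 3.21, replicate 2 of otud4 at 6.63, replicate 1 of si:ch211-71n6.4 at 6.03, replicate 1 of fabp7a at 11.97, replicate 2 of mpeg1.2 at 6.57 and replicate 3 of slc7a8a at 8.36. In the intact brain they were replicate 4 of ccl19a.2 at 4.21, replicate 4 of nefla at 3.78 and replicate 3 of c1qa, a complement gene of microglia, at 4.12.

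For 17 of 95 genes the skull minus nostril difference at 3 dpi differed from the mean of the differences at 1, 2 and 7 dpi (limma, Benjamini-Hochberg adjusted). Of all named genes 0.564% did. Many of the 95 genes were chosen by their 3 dpi values, which enter this contrast, so an excess was likely in advance. Without nostril replicate 3 the contrast called 0 transcripts. The 3 dpi difference was more positive by 1.65 for ifi44a8, 1.43 for otud4, 1.15 for wdr46 and 0.76 for ccl19a.2. It was more negative for transporters and secreted proteins, by -2.30 for oatx, -0.85 for slc22a21, -1.28 for bmp1b and -0.79 for vegfab, and by -1.28 for si:ch211-71n6.4. Glial, myelin and synaptic genes had -0.56 for cyp19a1b, -0.71 for tspan2a, -0.46 for gpm6ba and -0.50 for sypa. Metabolic genes had -0.67 for insig2, -0.56 for gpx4b, -0.45 for ndufs3 and -0.70 for atp5mc3b.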

How the results depend on the processing

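The 76 called genes named kept the sign of their difference under every alternative in which they were tested, which their choice by the same samples made likely. Counts of calls moved, and the excess of lower over higher calls turned round under cyclic loess. Limma on the skull and nostril samples alone, and the fit with the replicate block, which leaves out skull replicate 4, each called 0 transcripts (4818 and 4325 at an unadjusted p under 0.05), as did the same 6 samples with no block (4810), an alternative added after seeing the data. Array weights gave 446 calls (101 higher, 345 lower), no intensity limit 759 (250 higher, 509 lower), and quantile normalization 607 lower and cyclic loess 573 higher and 483 lower. The study's criteria gave 654 higher. With 1 sample left out, calls ran from 146 to 4163, higher ones from 24 to 1347 and lower ones from 121 to 2816. The contrast of 3 dpi with the other days gave 95 calls with array weights, 187 after quantile normalization and 0 to 2247 with 1 sample left out. The genes called within the lists numbered 52, and 0 to 132 over all alternatives. Of the 76 called genes named, 38 lost the call with array weights, 26 with no intensity limit, 20 after cyclic loess, 17 after quantile normalization, 2 (irf1b and psmg2) with arrays centred on the median, and all 76 in the fits of the skull and nostril samples alone, with or without the block. The 17 were fga, slc16a9a, twsg1a, tmem100b, fabp7a, glulb, gpm6ba, gria3b, sncgb, uchl1, mmp2, prdx2, pfklb, mdm4, rpl10a, rps3 and ptgdsb.1, and cyclic loess ended those of csf2rb, sypa and uba7 as well. With moderation by trend and robust, or the intensity limit set on the skull or nostril group at 3 dpi, all 76 kept their call. Interferon-response calls numbered 3 with no intensity limit and 7 with it. The cause of these changes was not tested.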

Other observations

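Of the 498 called named genes, 13 were called whichever of the 7 samples was left out: otud4, which was higher, and 12 genes that were lower after skull injury. All the lower ones but oatx were chosen here after their values were seen. The kinase inhibitor gene pebp1 read 8.15, 8.22, 7.88 and 7.79 after skull injury and 8.70, 8.68 and 8.67 after nostril injury (-0.67 ± 0.10, adjusted p = 0.00288, limma), with very even nostril samples. The mitophagy receptor gene bnip3la was at 8.39 to 8.78 after skull injury and at 8.98 to 9.26 after nostril injury (-0.58 ± 0.10, adjusted p = 0.00551). The polyamine acetyltransferase gene sat1a.1 was at 4.25 to 4.82 after skull injury and at 5.29 to 5.48 after nostril injury (-0.80 ± 0.13). The differences of ccnc (cyclin C), cep164 (a centriole protein), dusp11 (an RNA phosphatase), mettl23, mid1ip1l, tmem165 and tsn (translin) lay between -0.55 and -0.76, with no overlap of samples.

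The remaining gene lists held few calls. Of 21 complement and coagulation genes 1 was higher (fga, 4.76%, against 0.605% of all named genes). Of 50 endothelial and mural genes 1 was lower (vegfab, 2%), and of 27 glucocorticoid-responsive genes 1 was lower (glula, 3.7%), against 2.86% of all named genes. Of 23 red blood cell, 9 olfactory and 35 skin, cartilage, bone and muscle genes 0 were called in limma. At an unadjusted p under 0.05 these lists had 2, 2 and 7 members, beside 21.5% of all named genes in either direction. The summed linear level of the olfactory list was 1720 to 2300 in skull samples and 2390 to 2520 in nostril samples, which do not overlap, and that of the red blood cell list was 1690 to 1970 in skull samples and 1750 to 1870 in nostril samples.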
